A study of Mus musculus with 9 samples.

Results

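The tumour necrosis factor (TNF) superfamily pairs ligands, most of them anchored in the membrane of one cell, with receptors on another. It was followed here in cultured mouse podocytes, the epithelial cells that wrap the capillaries of the kidney glomerulus. Genes were taken as members when their symbol began with Tnfsf or Tnfrsf and a number, or was Tnf, Lta, Ltb, Fas, Fasl, Cd27, Cd70, Cd40, Cd40lg, Ngfr or Eda2r. The rule found 40 of the 22180 genes measured, 15 ligands and 25 receptors, each on 1 probe set. Tnfsf12 and Tnfsf13, which also meet the rule, share a probe set with other symbols and were not analysed here.

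Before treatment the podocytes spent 11 days at 37 °C to differentiate. 3 arrays came from cells given 2.5 µM thapsigargin with 10 µM forskolin, called the combined treatment below, 3 from cells given 2.5 µM thapsigargin alone, both for 16 hours, and 3 from cells given the vehicle DMSO. No group with forskolin alone was analysed here. Thapsigargin is an inhibitor of the calcium pump of the endoplasmic reticulum (ER) and so a standard way to cause ER stress. Forskolin raises cAMP through adenylyl cyclase. The labels name biological replicates but not whether cultures were separate, and the p-values cover only the variation among these 9 arrays, which may be technical.

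Receptors of the family fall into groups by what their inner part binds. Death domain receptors such as Fas and TNF receptor 1 can assemble a complex that activates caspases. Most others bind TRAF adaptors and lead to NF-kB and stress kinases, while decoy receptors bind ligand and carry no signal of their own. In the kidney, TNF and its receptors are studied for their part in glomerular inflammation and podocyte injury.

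Values are log2 expression levels, and a change is a difference of group means on that scale with its limma standard error. A gene is called changed at a Benjamini-Hochberg adjusted p below 0.05 in limma over all 22180 genes. The median over all values of the table was 5.84 and the lower quartile was 4.55, and these serve as marks of dim signal, not as tests of detection. The arrays were much alike, with a Pearson correlation over all probe sets of 0.989 to 0.993 within groups and of 0.966 to 0.992 between groups. Of 8 measured podocyte markers 7 had a DMSO mean above the median of the table, among them Nphs1 at 6.55, Wt1 at 6.80 and Podxl at 8.46, while Ptpro had 5.35. The summed log2 level of these 8 markers was 60.35 to 60.57 on the combined arrays, 61.22 to 61.60 on the thapsigargin arrays and 65.31 to 65.49 on the DMSO arrays. In RNA of a whole culture, fewer cells of a type and less RNA per cell cannot be told apart.

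Markers of other cells that could carry these genes were measured too. Of 8 macrophage markers 4 lay above the median in DMSO, and their summed level was 49.78 to 50.37 on combined, 48.53 to 48.82 on thapsigargin and 49.99 to 50.77 on DMSO arrays. Of 6 T and natural killer cell markers 2 lay above it, with sums of 30.08 to 31.54 on combined, 30.02 to 31.11 on thapsigargin and 30.67 to 31.43 on DMSO arrays. None of the 3 B cell markers lay above it, with sums of 15.11 to 15.45 on combined, 14.99 to 15.36 on thapsigargin and 15.12 to 15.72 on DMSO arrays. Of 6 endothelial, 5 mesangial and 6 tubular markers 2, 3 and 4 lay above the median in DMSO. The tubular sum was 41.34 to 41.54 on combined, 40.13 to 40.84 on thapsigargin and 49.18 to 49.56 on DMSO arrays. Against DMSO 4 of the 6 tubular markers were called lower and 0 higher in each thapsigargin group. Of all genes 16.9% were called lower with thapsigargin and 16.7% with the combined treatment. Cdh16 averaged 8.32 in combined, 7.79 in thapsigargin and 11.16 in DMSO cells. Aqp1 averaged 8.31, 8.46 and 11.71 in the same order, and Umod 5.67, 5.69 and 5.78. The mesangial sum was 42.29 to 43.14 on combined, 40.56 to 40.94 on thapsigargin and 43.77 to 44.10 on DMSO arrays. A sum can hide markers that move apart. The mesangial marker Mcam averaged 10.62 in combined, 8.04 in thapsigargin and 8.77 in DMSO cells, and Acta2 averaged 11.31 in combined, 12.47 in thapsigargin and 13.31 in DMSO cells. The macrophage marker Csf1r averaged 7.62 in combined, 6.80 in thapsigargin and 7.98 in DMSO cells, and Cd14 averaged 8.94 in combined, 8.08 in thapsigargin and 7.97 in DMSO cells. The endothelial sum was 35.66 to 36.03 on combined, 35.83 to 36.46 on thapsigargin and 36.90 to 37.17 on DMSO arrays. Of the 6 endothelial markers 1, Ehd3, was called against DMSO, in both treated groups. Ehd3 averaged 9.05 in combined, 9.16 in thapsigargin and 10.36 in DMSO cells. What part these cells or the podocyte markers play in the results below was not tested.

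More receptors than ligands of the family gave signal above the median of the table. By highest group mean, 19 of 25 receptors lay above the median of the table, 5 lay between the lower quartile and the median, and 1, Tnfrsf13b, lay below the quartile. Of the 15 ligands 6 lay above the median, 6 between quartile and median, and Cd40lg, Cd70 and Tnfsf10 below the quartile. The median is over all probe sets, also those without a symbol. Of all 22180 genes, 13460 had a mean above it in thapsigargin or DMSO cells, and 13485 in combined or DMSO cells. The brightness of a probe set depends on its probes as well as on the RNA, so these are places in the table and not an order of transcript amounts.

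Thapsigargin alone was followed by small changes in both directions across the family. 7 members were higher and 9 lower than in DMSO, which is 40.0% of the 40. Among all genes tested, 35.0% were called in this comparison, 18.2% higher and 16.9% lower, so the family's share is near that of the table. The median change was -0.10 over the members and -0.04 over all genes. Only Fas among the 40 passed 2-fold, and downward, where 3.08% of all genes were called at least 2-fold higher and 2.94% at least 2-fold lower. The count of lower members was 4 without DMSO replicate 2 and 5 without thapsigargin replicate 1 or thapsigargin replicate 3.

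Fewer members separated the combined treatment from thapsigargin alone. Here 3 were higher and 4 lower, 17.5% of the 40, where 7.87% of all genes were called, 3.70% higher and 4.17% lower. The median change was 0.00 over the members and -0.01 over all genes. The higher members, Tnfrsf21, Tnfrsf1b and Tnfrsf9, are receptors, and the lower ones are the ligands Tnfsf18 and Tnfsf15 and the receptors Tnfrsf12a and Tnfrsf10b. Tnfsf18 was the one member called past 2-fold, in a comparison in which 0.271% of all genes were called at least 2-fold higher and 0.131% at least 2-fold lower.

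The combined treatment against DMSO called 5 members higher and 10 lower, 37.5% of the 40, where 34.5% of all genes were called, 17.9% higher and 16.7% lower. The median change was -0.12 over the members and -0.04 over all genes. Tnfrsf21 was called past 2-fold upward and Tnfsf18 and Fas past 2-fold downward, as were 2.57% and 2.70% of all genes in those directions. Each comparison shares a group of arrays with each of the others, so the 3 sets of calls are not independent.

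**Figure D1:**
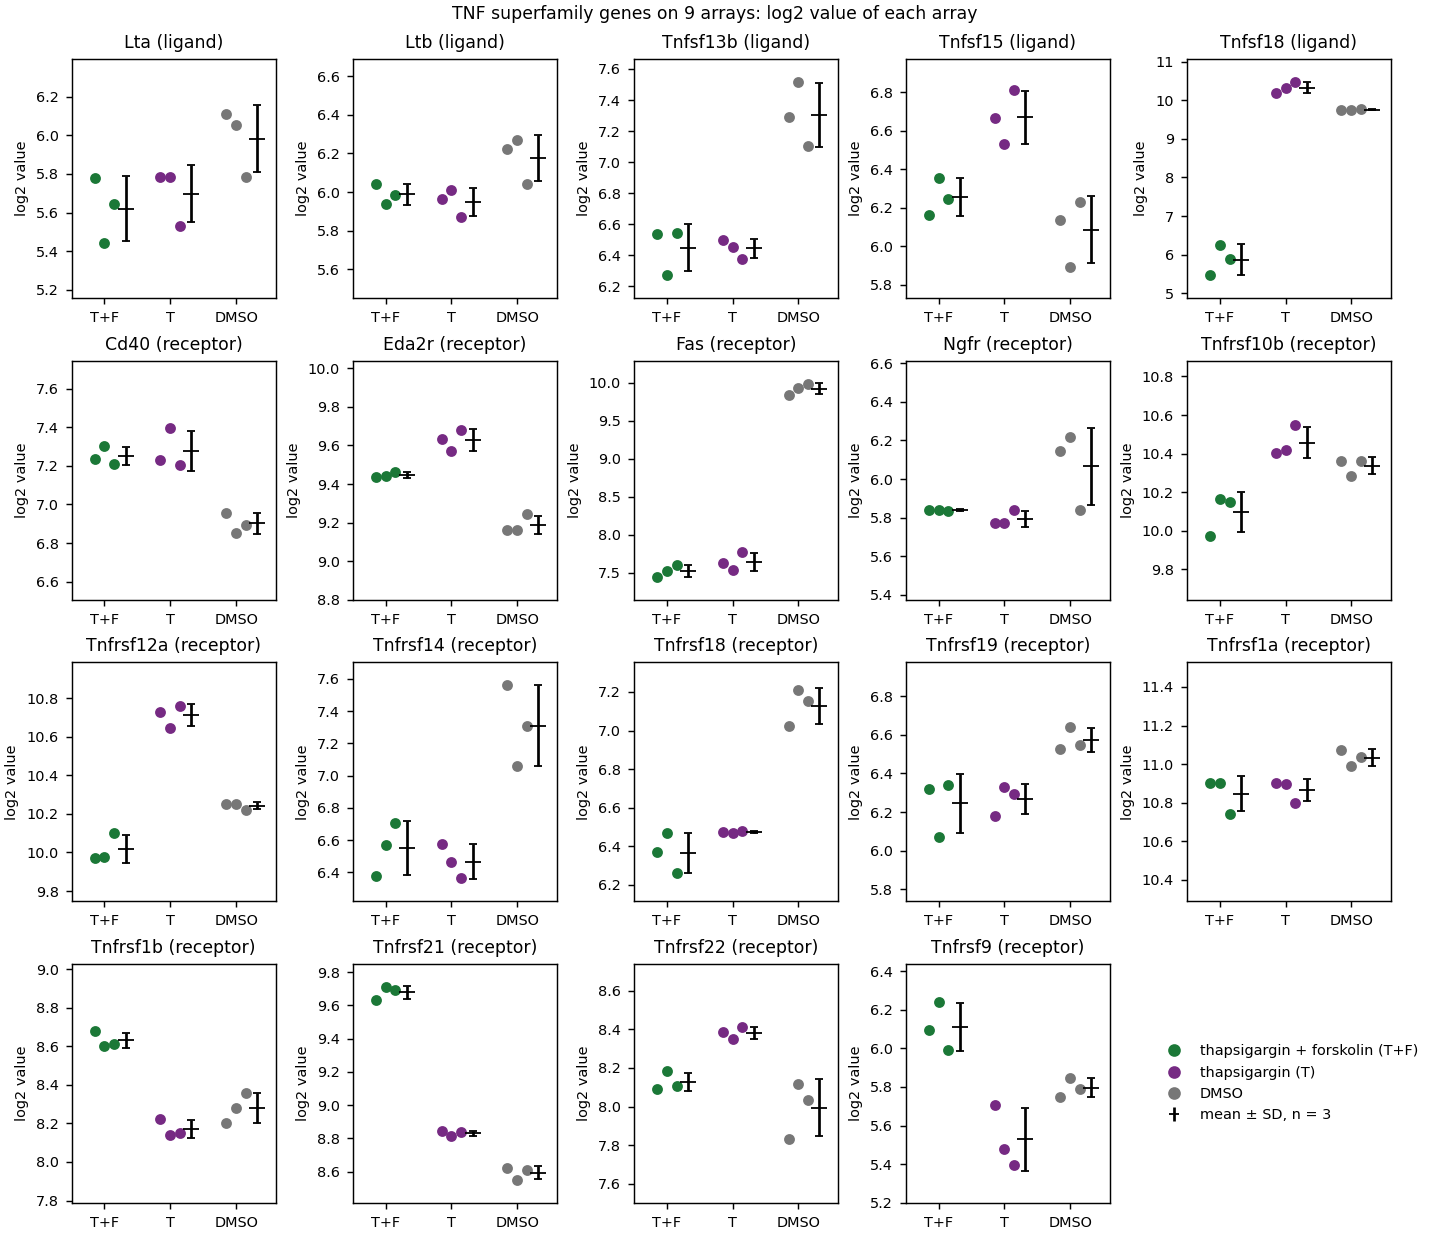
Log2 expression level on each of the 9 arrays for the 19 members called in any comparison with a group mean above the median. Each panel has its own axis, T+F is the combined treatment and T thapsigargin alone, points are arrays and bars are the mean ± SD (n = 3). The Tnfsf18 points of the combined treatment lie near 5.87 and those of both other groups near or above 9.75, and Fas sits near 7.5 in both thapsigargin groups and near 9.92 in DMSO.

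Among ligands, Tnfsf18 set the combined treatment apart. It encodes the ligand of the costimulatory receptor that Tnfrsf18 encodes, best known from T cells. Its log2 level was 5.47, 6.25 and 5.89 on the combined arrays, against 10.19, 10.33 and 10.47 on the thapsigargin arrays and 9.76, 9.74 and 9.76 on the DMSO arrays. The 3 groups did not overlap, and the combined mean of 5.87 ± 0.39 (SD, n = 3) lay close to the median of the table. The change was -4.45 ± 0.17 against thapsigargin, a level 21.9 times lower (limma adjusted p = 8.42e-07), and -3.88 ± 0.17 against DMSO, 14.7 times lower (adjusted p = 1.4e-07). These folds are between the deposited values, and whether the combined signal stood above background was not tested. Over all alternatives and with each array left out, the first change stayed between -4.65 and -4.25 and the second between -4.07 and -3.68.

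Thapsigargin alone moved Tnfsf18 the other way, by a smaller amount. The mean was 10.33 ± 0.14 in thapsigargin and 9.75 ± 0.01 in DMSO (SD, n = 3 each), a change of 0.57 ± 0.17 (limma adjusted p = 0.023). The spread in this fit is shared with the combined arrays, whose SD was the highest of the 3 groups. The call was lost without any 1 of DMSO replicates 1, 2 and 3 and thapsigargin replicates 2 and 3, with adjusted p from 0.0533 to 0.0843, and it held in a fit of the 6 arrays compared (adjusted p = 0.00107).

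The genes beside Tnfsf18 on mouse chromosome 1 gave dim signal and were called in no comparison. These are Tnfsf4 and Fasl, its nearest protein-coding neighbours in RefSeq. Tnfsf4, which encodes another costimulatory ligand, averaged 4.86 in combined, 5.11 in thapsigargin and 4.97 in DMSO cells, and Fasl, which encodes the ligand of Fas, averaged 5.05 in combined, 5.03 in thapsigargin and 5.08 in DMSO cells. The 95% interval of the combined minus thapsigargin difference was -0.53 to 0.04 for Tnfsf4 and -0.12 to 0.16 for Fasl.

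The stretch upstream of the 3 members past 2-fold is shown, because these genes carry the differences above. Each is the 250 bases before the annotated start, 5′ to 3′ on the gene's strand, from RefSeq build GRCm38.p6. Tnfsf18 lies at chr1:161494407-161494656, Fas at chr19:34290409-34290658 and Tnfrsf21 at chr17:43016305-43016554, all on the plus strand. Capitals mark the TATA box TATAAA in Tnfsf18 and the AP-1 motif TGANTCA in Fas, and Tnfrsf21 held none of the motifs searched.
Tnfsf18: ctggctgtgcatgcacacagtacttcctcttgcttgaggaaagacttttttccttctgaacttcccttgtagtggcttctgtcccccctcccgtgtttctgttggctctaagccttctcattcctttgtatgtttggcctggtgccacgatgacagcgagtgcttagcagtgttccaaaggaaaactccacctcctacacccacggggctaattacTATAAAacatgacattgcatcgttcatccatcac
Fas: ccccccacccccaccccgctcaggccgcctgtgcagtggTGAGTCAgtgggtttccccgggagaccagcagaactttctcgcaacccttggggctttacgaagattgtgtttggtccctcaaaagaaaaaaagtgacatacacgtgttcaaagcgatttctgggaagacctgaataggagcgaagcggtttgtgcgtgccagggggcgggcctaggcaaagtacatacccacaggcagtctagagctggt
Tnfrsf21: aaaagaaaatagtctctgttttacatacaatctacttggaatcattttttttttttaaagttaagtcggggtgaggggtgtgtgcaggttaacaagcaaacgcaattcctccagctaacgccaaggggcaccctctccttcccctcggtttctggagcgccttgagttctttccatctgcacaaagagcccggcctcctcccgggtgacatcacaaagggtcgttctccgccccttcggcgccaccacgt

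RefSeq promoters were matched for 31 of the 40 members, with 35 starts in all, and searched on both strands. The cAMP response element TGACGTCA stood in 0 of the 35 windows and in 1.55% of all 32851 windows of the same length. Its core TGACG, which any full element also contains, stood in 5 of the 35 and in 17.8% of all. The AP-1 motif stood in 5 of the 35, those of Fas, Tnfrsf8, Tnfrsf9, Tnfsf13b and Tnfsf14, and in 6.75% of all. The motif TGATGNAA, bound by ATF4 with CHOP, and the ER stress element (ERSE) stood in 0 of the 35, and in 3.45% and 0.113% of all windows. The NF-kB motif stood in 3 of the 35 and in 3.90% of all, and TATAAA in 7 of the 35 and in 12.4% of all. A match is a description of these letters and not a site shown to be used.

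The other ligands moved by less than 2-fold. Tnfsf13b encodes a survival factor of B cells. Its level was 6.53, 6.27 and 6.54 on the combined arrays, 6.50, 6.45 and 6.38 on the thapsigargin arrays and 7.29, 7.51 and 7.10 on the DMSO arrays. Both thapsigargin groups lay below all DMSO arrays and overlapped with each other. The change was -0.86 ± 0.11 for thapsigargin (limma adjusted p = 0.000177) and -0.85 ± 0.11 for the combined treatment (adjusted p = 0.000203), 1.81 times lower in each. Between the 2 thapsigargin groups the difference was 0.00, with a 95% interval of -0.24 to 0.25.

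Tnfsf15, the ligand of the death domain receptor that Tnfrsf25 encodes, was higher after thapsigargin alone. Its values were 6.16, 6.36 and 6.25 with the combined treatment, 6.66, 6.53 and 6.81 with thapsigargin and 6.14, 5.89 and 6.23 with DMSO. The thapsigargin arrays lay above all others, and the combined and DMSO arrays overlapped. The change was 0.58 ± 0.10 for thapsigargin over DMSO (limma adjusted p = 0.00149) and -0.41 ± 0.10 for combined over thapsigargin (adjusted p = 0.0422). That second call was lost without any 1 of the combined replicates 1, 2 and 3, thapsigargin replicates 1 and 3 and DMSO replicate 1, with adjusted p from 0.0576 to 0.149. Combined over DMSO gave 0.17 ± 0.10, which was not called.

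Lta and Ltb encode the lymphotoxins and flank Tnf on mouse chromosome 17. Lta was 5.78, 5.44 and 5.64 in combined, 5.78, 5.78 and 5.53 in thapsigargin and 6.11, 6.05 and 5.79 in DMSO cells, and Ltb was 6.04, 5.94 and 5.98 in combined, 5.96, 6.01 and 5.87 in thapsigargin and 6.22, 6.27 and 6.04 in DMSO cells. Lta was called lower in combined than in DMSO cells (-0.36 ± 0.12, limma adjusted p = 0.0386) and Ltb lower in thapsigargin than in DMSO cells (-0.23 ± 0.07, adjusted p = 0.0324). The Lta call was lost without any 1 of combined replicates 2 and 3, thapsigargin replicates 1 and 2 and DMSO replicates 1 and 2 (adjusted p 0.0513 to 0.133). The Ltb call was lost without any 1 of thapsigargin replicates 1 and 3 and DMSO replicates 1 and 2 (adjusted p 0.0715 to 0.117). Without DMSO replicate 3, the lowest DMSO array for both, Lta was called for thapsigargin (adjusted p = 0.0312) and Ltb for the combined treatment (adjusted p = 0.0154). Tnf itself averaged 5.32 ± 0.19 in combined, 5.25 ± 0.11 in thapsigargin and 5.38 ± 0.17 in DMSO cells and was not called.

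Tnfsf11, which encodes the osteoclast factor RANKL, was 4.79, 4.76 and 4.67 in combined, 4.60, 4.79 and 4.71 in thapsigargin and 4.93, 5.07 and 4.86 in DMSO cells. It was called lower with thapsigargin (-0.25 ± 0.08, limma adjusted p = 0.0254) at a level below the median of the table. That call was lost without thapsigargin replicate 1, thapsigargin replicate 3 or DMSO replicate 2 (adjusted p 0.0603 to 0.0979), and without DMSO replicate 3 the combined treatment was called as well (adjusted p = 0.0343). The other ligands, Cd40lg, Cd70, Fasl, Tnf, Tnfsf4, Tnfsf8, Tnfsf9, Tnfsf10 and Tnfsf14, were called in no comparison. Tnfsf9, the one of them above the median, averaged 6.54 in combined, 6.57 in thapsigargin and 6.65 in DMSO cells. In limma 0 ligands were called higher with the combined treatment than with thapsigargin or than with DMSO, also 0 at an unadjusted p below 0.05 in both. Of all genes 3.70% and 17.9% were called higher in these comparisons, so a count of 0 among 15 ligands is not a result about ligands.

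**Figure D2:**
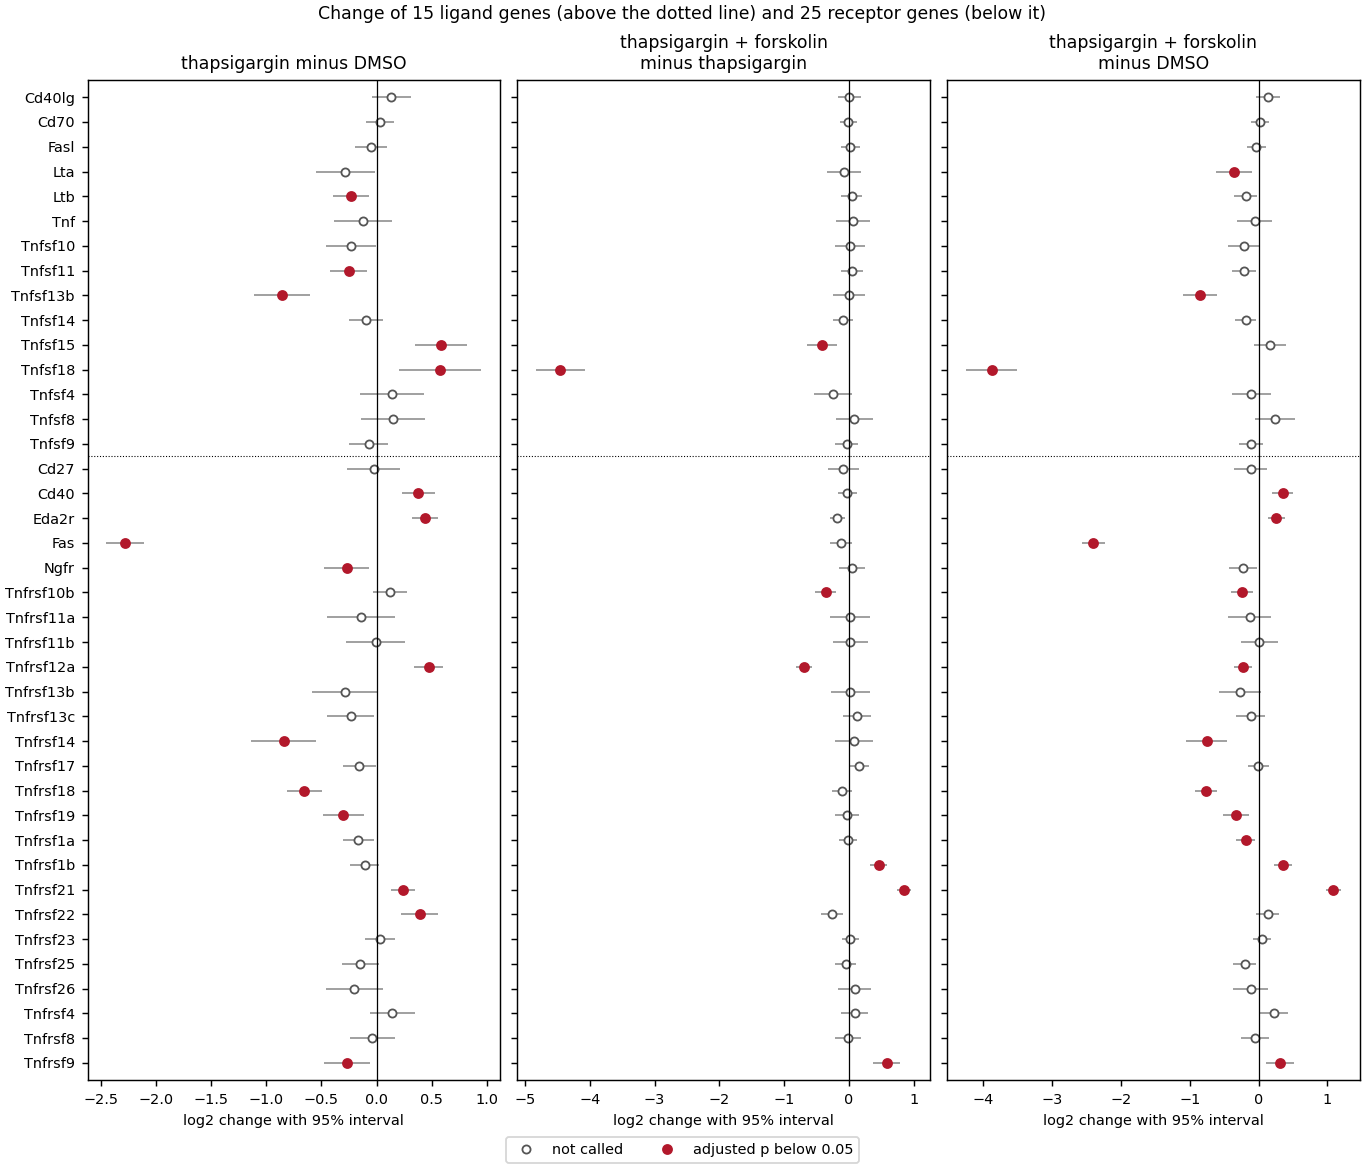
Log2 change with its 95% confidence interval for all 40 members in each of the 3 comparisons, ligands above the dotted line and receptors below it. Filled points are called, and each panel has its own axis. The Tnfsf18 changes of -4.45 and -3.88 lie far from the rest, the Fas changes of -2.28 and -2.40 come next, and of the others Tnfrsf21 reaches 1.08.

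Of the 6 death domain receptors measured, Fas was lower and Tnfrsf21 higher by more than the others. Thapsigargin called 1 of the 6 higher and 2 lower than DMSO, the combined treatment called 1 higher and 1 lower than thapsigargin, and 1 higher and 3 lower than DMSO. The shares of all genes called in these comparisons were 35.0%, 7.87% and 34.5%, and 6 genes are too few to read a share from. Fas encodes the receptor that starts apoptosis when Fas ligand binds. Its level was 7.45, 7.52 and 7.60 on combined arrays, 7.63, 7.53 and 7.77 on thapsigargin arrays and 9.85, 9.94 and 9.99 on DMSO arrays. The 2 thapsigargin groups overlapped, and both lay more than 2 log2 units below every DMSO array. The combined mean was 5.29 times lower than the DMSO mean (-2.40 ± 0.07, limma adjusted p = 2.42e-08), and the thapsigargin change was -2.28 ± 0.07. Forskolin together with thapsigargin left Fas at -0.12 ± 0.07 relative to thapsigargin alone, with a 95% interval of -0.29 to 0.05 (adjusted p = 0.443).

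Tnfrsf21 encodes a death domain receptor known from neurons and from T and B cells. Its level was 9.63, 9.71 and 9.69 with the combined treatment, 8.84, 8.81 and 8.84 with thapsigargin and 8.62, 8.55 and 8.61 with DMSO. No group overlapped with another. The combined treatment raised it by 0.85 ± 0.05 over thapsigargin (1.80-fold, limma adjusted p = 1.09e-05) and by 1.08 ± 0.05 over DMSO (2.12-fold, adjusted p = 1.97e-07). Thapsigargin alone raised it by 0.24 ± 0.05 over DMSO (adjusted p = 0.00384).

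The remaining death domain receptors differed by less than Fas and Tnfrsf21. Tnfrsf1a, which encodes TNF receptor 1, was 10.90, 10.90 and 10.74 on combined arrays, 10.90, 10.90 and 10.80 on thapsigargin arrays and 11.07, 10.99 and 11.04 on DMSO arrays. It was called lower in combined than in DMSO cells (-0.19 ± 0.06, limma adjusted p = 0.0455). That call was lost without any 1 of the 9 arrays other than combined replicate 1 (adjusted p 0.051 to 0.156), and without combined replicate 3 thapsigargin was called lower than DMSO (adjusted p = 0.0467). Tnfrsf10b, the death receptor for Tnfsf10 in the mouse, was 9.98, 10.16 and 10.15 in combined, 10.40, 10.42 and 10.55 in thapsigargin and 10.36, 10.29 and 10.36 in DMSO cells. The combined arrays lay below all others, by 0.36 against thapsigargin (-0.36 ± 0.07, adjusted p = 0.0116) and by 0.24 against DMSO (-0.24 ± 0.07, adjusted p = 0.0226). The call against DMSO was lost without combined replicate 1, DMSO replicate 1 or DMSO replicate 3 (adjusted p 0.0582 to 0.0691).

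Ngfr encodes the low-affinity neurotrophin receptor. It was 5.84, 5.84 and 5.83 in combined, 5.77, 5.77 and 5.84 in thapsigargin and 6.14, 6.22 and 5.84 in DMSO cells, so the groups overlapped. The call for thapsigargin (-0.27 ± 0.09, limma adjusted p = 0.0406) was lost without any 1 of the 9 arrays other than DMSO replicate 3 (adjusted p 0.0572 to 0.137). Without DMSO replicate 3 the combined treatment was called lower (adjusted p = 0.00156). Tnfrsf25, the receptor of Tnfsf15, averaged 6.44 in combined, 6.49 in thapsigargin and 6.64 in DMSO cells and was not called.

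Among the 16 receptors that are neither decoys nor death domain receptors, thapsigargin called 3 higher and 4 lower than DMSO. The combined treatment called 2 higher and 1 lower than thapsigargin, and 4 higher and 4 lower than DMSO. The shares of all genes called were 35.0%, 7.87% and 34.5% in these comparisons. Tnfrsf12a encodes the receptor of the ligand TWEAK, which is known for tissue repair. It was 9.97, 9.98 and 10.10 in combined, 10.73, 10.65 and 10.76 in thapsigargin and 10.25, 10.25 and 10.22 in DMSO cells. The groups did not overlap, with thapsigargin highest, DMSO between and the combined treatment lowest. Thapsigargin raised it by 0.47 ± 0.06 over DMSO (limma adjusted p = 0.000121), and the combined treatment lowered it by 0.69 against thapsigargin (-0.69 ± 0.06, adjusted p = 9.38e-05). It was lower by 0.22 in combined than in DMSO cells (-0.22 ± 0.06, adjusted p = 0.0128). Without combined replicate 2 that last call was lost (adjusted p = 0.0509).

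Tnfrsf1b and Tnfrsf9 were higher with the combined treatment. Tnfrsf1b encodes TNF receptor 2, which binds TRAF adaptors and has no death domain. It was 8.68, 8.60 and 8.61 in combined, 8.22, 8.14 and 8.15 in thapsigargin and 8.20, 8.28 and 8.35 in DMSO cells, so the combined arrays lay above both other groups, which overlapped. The change was 0.46 ± 0.06 against thapsigargin (limma adjusted p = 0.00137) and 0.35 ± 0.06 against DMSO (adjusted p = 0.00098). Tnfrsf9, a costimulatory receptor of T cells, was 6.10, 6.24 and 5.99 in combined, 5.71, 5.48 and 5.40 in thapsigargin and 5.75, 5.85 and 5.79 in DMSO cells. The combined treatment raised it by 0.58 ± 0.09 over thapsigargin (adjusted p = 0.00422) and by 0.31 ± 0.09 over DMSO (adjusted p = 0.0245). Its call against DMSO was lost without combined replicate 1 or 2 or DMSO replicate 1 or 3 (adjusted p 0.0509 to 0.091). Thapsigargin lowered it against DMSO (-0.27 ± 0.09, adjusted p = 0.0481), a call lost without any 1 of combined replicate 1, thapsigargin replicates 2 and 3 and DMSO replicates 1, 2 and 3 (0.0661 to 0.168).

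Of these receptors without a death domain, Tnfrsf14, Tnfrsf18 and Tnfrsf19 were lower than DMSO in both thapsigargin groups. Tnfrsf14, which encodes a receptor for Tnfsf14 and lymphotoxin, was 6.38, 6.57 and 6.71 in combined, 6.57, 6.46 and 6.36 in thapsigargin and 7.56, 7.06 and 7.31 in DMSO cells. Against DMSO it was -0.76 ± 0.13 for the combined treatment (limma adjusted p = 0.00129) and -0.84 ± 0.13 for thapsigargin (adjusted p = 0.0006). Tnfrsf18, the receptor of Tnfsf18, was 6.37, 6.47 and 6.26 in combined, 6.48, 6.47 and 6.48 in thapsigargin and 7.02, 7.21 and 7.15 in DMSO cells. Against DMSO it was -0.76 ± 0.07 for the combined treatment (adjusted p = 1.89e-05) and -0.65 ± 0.07 for thapsigargin (adjusted p = 4.76e-05). Between the 2 thapsigargin groups the difference of Tnfrsf18 was -0.11, with a 95% interval of -0.26 to 0.05, while its ligand differed by -4.45. Tnfrsf19, a receptor known from neural and epithelial development, was 6.32, 6.07 and 6.34 in combined, 6.18, 6.33 and 6.29 in thapsigargin and 6.53, 6.64 and 6.54 in DMSO cells. Both thapsigargin groups lay below all DMSO arrays, at -0.33 ± 0.08 for the combined treatment (adjusted p = 0.0116) and -0.30 ± 0.08 for thapsigargin (adjusted p = 0.0163). Without DMSO replicate 2 or thapsigargin replicate 1 the thapsigargin call of Tnfrsf19 was lost (adjusted p 0.0617 to 0.0661).

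Cd40 and Eda2r were higher in both thapsigargin groups. Cd40, the receptor through which T cells license antigen-presenting cells, was 7.24, 7.30 and 7.21 in combined, 7.23, 7.40 and 7.21 in thapsigargin and 6.96, 6.85 and 6.89 in DMSO cells. It rose by 0.35 ± 0.07 with the combined treatment (limma adjusted p = 0.0022) and by 0.38 ± 0.07 with thapsigargin (adjusted p = 0.00127). Eda2r, the receptor for a form of ectodysplasin and a p53 target, was 9.44, 9.44 and 9.46 in combined, 9.63, 9.57 and 9.68 in thapsigargin and 9.16, 9.16 and 9.24 in DMSO cells. Over DMSO it rose by 0.26 ± 0.05 with the combined treatment (adjusted p = 0.00339) and by 0.44 ± 0.05 with thapsigargin (adjusted p = 0.0001). The combined arrays lay between the other groups, at -0.18 ± 0.05 against thapsigargin, which was not called (adjusted p = 0.0736) but was with an intensity trend and robust prior (adjusted p = 0.017).

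Of the 3 decoy receptors Tnfrsf22 was called in 1 comparison, thapsigargin against DMSO, in which 35.0% of all genes were called. In the mouse, Tnfrsf22 and Tnfrsf23 encode decoys for Tnfsf10 and lie side by side on chromosome 7. Tnfrsf22 was 8.09, 8.18 and 8.11 in combined, 8.38, 8.35 and 8.41 in thapsigargin and 7.83, 8.12 and 8.03 in DMSO cells. Thapsigargin raised it by 0.39 ± 0.07 over DMSO (limma adjusted p = 0.00241), and the combined treatment stood at -0.26 ± 0.07 against thapsigargin, not called (adjusted p = 0.0796). That difference was called without DMSO replicate 1 (adjusted p = 0.0169), and also under 4 other settings, among them the fit of the 6 arrays compared (adjusted p = 0.0227). Tnfrsf23 was 11.16, 11.08 and 11.08 in combined, 11.02, 11.18 and 11.06 in thapsigargin and 11.00, 11.08 and 11.09 in DMSO cells, and the groups overlapped. Its 95% intervals ran from -0.11 to 0.16 for thapsigargin over DMSO and from -0.09 to 0.19 for combined over DMSO. Tnfrsf11b, which encodes osteoprotegerin, averaged 5.28 in combined, 5.26 in thapsigargin and 5.27 in DMSO cells. In limma 0 of the 3 decoys were called in either comparison of the combined treatment, and 1, Tnfrsf22, passed an unadjusted p below 0.05, against thapsigargin. Of all genes 7.87% were called for combined against thapsigargin and 34.5% for combined against DMSO. With only 3 decoys, a share cannot be read from these counts.

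The receptors not called in any comparison were Cd27, Tnfrsf4, Tnfrsf8, Tnfrsf11a, Tnfrsf11b, Tnfrsf13b, Tnfrsf13c, Tnfrsf17, Tnfrsf23, Tnfrsf25 and Tnfrsf26. Of these Tnfrsf4, the neighbour of Tnfrsf18 on chromosome 4, averaged 6.72 in combined, 6.63 in thapsigargin and 6.49 in DMSO cells. Its 95% interval against DMSO was 0.02 to 0.43 for the combined treatment (limma adjusted p = 0.0838) and -0.07 to 0.34 for thapsigargin. Tnfrsf13c, one of the receptors of Tnfsf13b, averaged 7.19 in combined, 7.07 in thapsigargin and 7.31 in DMSO cells. Tnfrsf13b and Tnfrsf17, the other receptors of Tnfsf13b, had highest group means of 4.28 and 4.61, near the lower quartile of the table. Single arrays changed some of these outcomes. Thapsigargin was called lower than DMSO for Tnfrsf13c without DMSO replicate 3 (adjusted p = 0.0244) and for Tnfrsf17 without thapsigargin replicate 2 (adjusted p = 0.0217). The combined treatment was called different from DMSO for Tnfrsf4 without DMSO replicate 1 (adjusted p = 0.0417), for Tnfrsf25 without DMSO replicate 3 or combined replicate 1 (0.032 and 0.0456), for the ligand Tnfsf14 without DMSO replicate 3 (0.0414) and for Tnfrsf13b without combined replicate 3 (0.0492).

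Ligands and receptors known to bind each other were set side by side. Of 30 such pairs 27 had both sides measured. Thapsigargin against DMSO called both sides of 1 pair, Tnfsf18 higher and Tnfrsf18 lower, while 14 pairs had 1 side called and 12 had neither. Combined against thapsigargin called both sides of 0 pairs in limma, 1 side of 6 and neither of 21. Combined against DMSO called both sides of 4 pairs, of which 3 were lower on both sides: Lta with Tnfrsf1a, Lta with Tnfrsf14, and Tnfsf18 with Tnfrsf18. The fourth, Lta with Tnfrsf1b, had the ligand lower and the receptor higher. The Lta side of 3 of these pairs rests on the call described above as lost without single arrays, as does the Tnfrsf1a side of its pair. Of all genes 35.0%, 7.87% and 34.5% were called in these comparisons, and some genes stand in several pairs. The pair counts are therefore not a result about pairs.

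**Figure D3:**
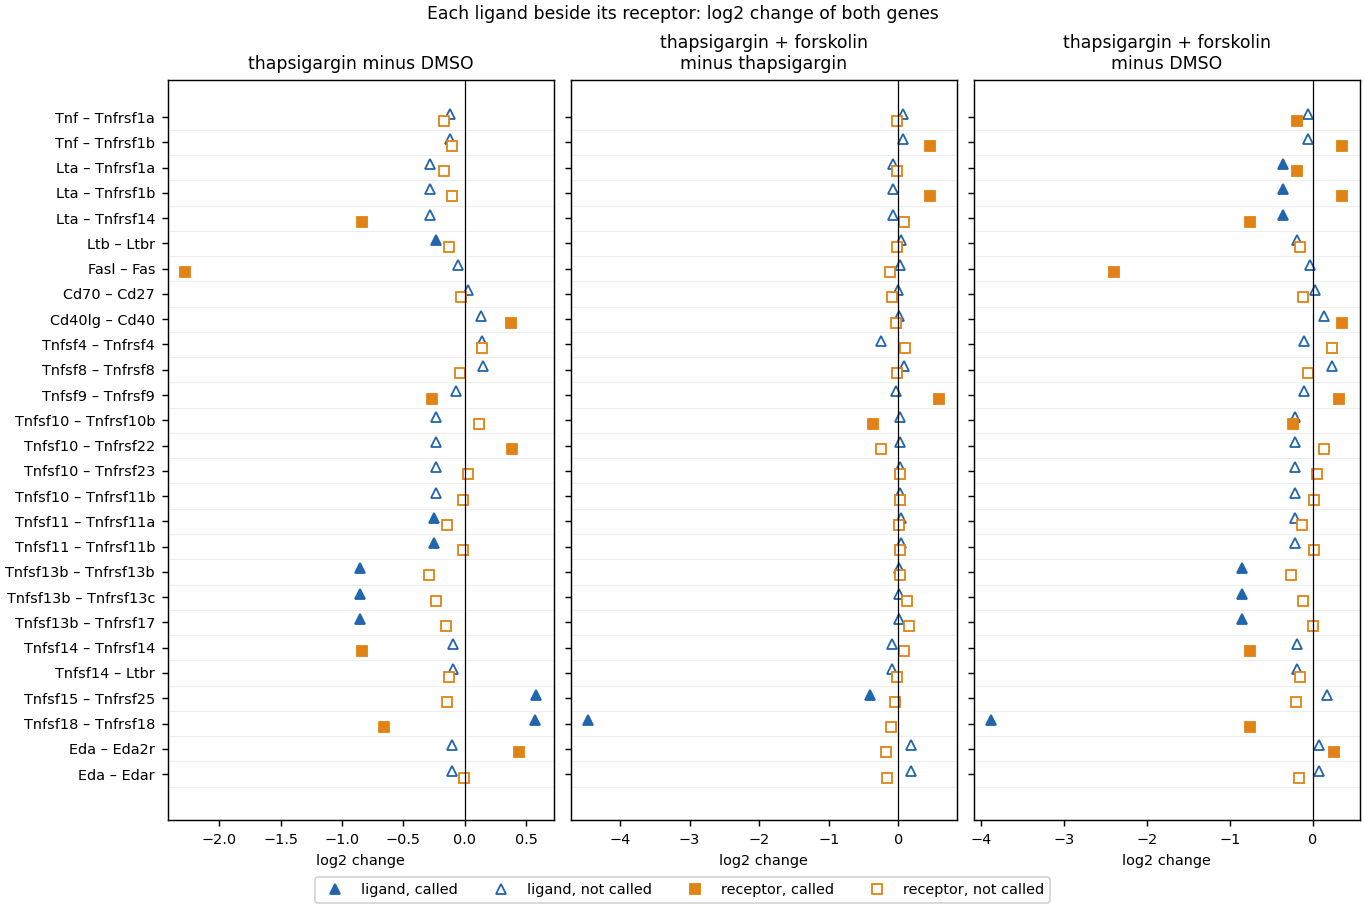
Log2 change of each ligand (triangle) and of its receptor (square) for the 27 measured pairs, 1 row per pair, in each of the 3 comparisons. Filled symbols are called, and each panel has its own axis. Tnfsf18 with Tnfrsf18 stands apart in both comparisons of the combined treatment, at -4.45 and -3.88 for the ligand and -0.11 and -0.76 for the receptor.

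Genes of the family that the rule leaves out, Eda, Edar, Ltbr, Relt and Rell1, gave 1 call in the 3 comparisons. That was Rell1, higher by 0.15 ± 0.05 in combined than in DMSO cells (limma adjusted p = 0.0425). Ltbr, the receptor of lymphotoxin, averaged 9.78 in combined, 9.80 in thapsigargin and 9.93 in DMSO cells. In the comparison of thapsigargin with DMSO 0 of the 5 were called in limma and 2 passed an unadjusted p below 0.05, 1 in each direction. Of all genes 35.0% were called for thapsigargin against DMSO, 7.87% for combined against thapsigargin and 34.5% for combined against DMSO. A share cannot be read from 5 genes. Rell2, which the rule also leaves out, was not measured.

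The adaptors and enzymes that work below the receptors were taken as a list of 43 genes, of which 40 were measured and Chuk, Ripk1 and Traf3 were not. Of these thapsigargin called 14 higher and 8 lower than DMSO, 55.0%, beside the 35.0% of all genes. The combined treatment called 2 higher and 6 lower than thapsigargin, 20.0%, beside 7.87%, and 12 higher and 10 lower than DMSO, 55.0%, beside 34.5%. All 40 but Traf1 had a group mean above the median of the table, where calls are commoner. In fits of genes above the median, thapsigargin called 4235 higher and 3838 lower than DMSO, of 13460. The combined treatment called 1102 and 1300 of 13089 against thapsigargin, and 4161 and 3790 of 13485 against DMSO. The shares of the list and of its classes below are therefore not read as a result about them. The median change of the list was 0.06 for thapsigargin over DMSO, 0.00 for combined over thapsigargin and 0.04 for combined over DMSO, beside -0.04, -0.01 and -0.04 over all genes.

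The class of TRAF adaptors held 8 measured genes: Traf1, Traf2, Traf4, Traf5, Traf6 and Traf7, with Tank and Traf3ip2, which are not TRAF genes themselves. Of these 8 thapsigargin called 6 higher than DMSO in limma, Tank and Traf3ip2 among them. It called 0 lower, with 1 lower at an unadjusted p below 0.05, where 18.2% of all genes were called higher and 16.9% lower. The combined treatment called 1 higher than thapsigargin, Traf5, and 2 lower, Tank and Traf3ip2, beside 3.70% and 4.17% of all genes. Against DMSO it called 3 higher and 0 lower, with 0 lower also at an unadjusted p below 0.05, beside 17.9% and 16.7%. Traf5 was 8.76, 8.87 and 8.87 in combined, 8.24, 8.20 and 8.29 in thapsigargin and 7.77, 7.94 and 7.83 in DMSO cells, with no overlap between groups. It rose by 0.59 ± 0.06 in combined over thapsigargin cells (limma adjusted p = 0.000493) and by 0.99 ± 0.06 in combined over DMSO cells (adjusted p = 1.68e-06).

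Daxx, which encodes a protein first found through its binding to Fas, was 9.10, 9.12 and 9.11 in combined, 9.36, 9.34 and 9.33 in thapsigargin and 8.19, 8.17 and 8.38 in DMSO cells. It rose by 1.10 ± 0.06 with thapsigargin (limma adjusted p = 7.84e-07) and by 0.87 ± 0.06 with the combined treatment (adjusted p = 4.33e-06). Birc2, a ubiquitin ligase that stops TNF receptor 1 from killing, was 8.76, 8.73 and 8.87 in combined, 8.63, 8.56 and 8.76 in thapsigargin and 7.57, 8.02 and 8.13 in DMSO cells. It rose by 0.74 ± 0.13 with thapsigargin (adjusted p = 0.00143) and by 0.88 ± 0.13 with the combined treatment (adjusted p = 0.000529). Tab2, an adaptor of the kinase TAK1, rose by 0.66 ± 0.06 with thapsigargin (adjusted p = 2.2e-05).

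Genes called lower included the kinase gene Map3k5 and 3 of the 4 genes for shedding, which releases ligands from the membrane. Map3k5, which encodes the stress kinase ASK1, was 6.69, 6.48 and 6.69 in combined, 6.51, 6.37 and 6.37 in thapsigargin and 7.22, 7.23 and 7.33 in DMSO cells. It fell by 0.84 with thapsigargin (-0.84 ± 0.07, limma adjusted p = 1.37e-05) and by 0.64 with the combined treatment (-0.64 ± 0.07, adjusted p = 0.000103). These 3 fell in each thapsigargin group against DMSO, where 16.7% of all genes were called lower with the combined treatment and 16.9% with thapsigargin. They were Adam10, which encodes a protease that sheds membrane proteins, and Rhbdf1 and Rhbdf2, which encode proteins that bring the TNF-shedding enzyme to the cell surface. Adam17, the gene of that enzyme, was not called, at -0.08 ± 0.08 in both (adjusted p = 0.438 for the combined treatment and 0.485 for thapsigargin). Rhbdf1 fell by 0.49 with thapsigargin (-0.49 ± 0.06, adjusted p = 0.000117) and by 0.56 with the combined treatment (-0.56 ± 0.06, adjusted p = 5.04e-05). Tnip1, a partner of Tnfaip3, fell by 0.54 with thapsigargin (-0.54 ± 0.05, adjusted p = 1.24e-05).

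Between combined and thapsigargin cells, the largest falls of the list were those of Tnfaip3, Map3k14 and Mlkl. Tnfaip3, a ubiquitin-editing brake on NF-kB, was 8.04, 8.14 and 8.18 in combined, 8.59, 8.72 and 8.88 in thapsigargin and 8.44, 8.70 and 8.59 in DMSO cells, so the combined arrays lay below both other groups. It fell by 0.61 against thapsigargin (-0.61 ± 0.09, limma adjusted p = 0.0033). Map3k14, the kinase of the alternative NF-kB pathway, fell by 0.42 (-0.42 ± 0.07, adjusted p = 0.00415). Mlkl, the effector of necroptosis, fell by 0.32 against thapsigargin (-0.32 ± 0.08, adjusted p = 0.0444) and by 0.56 against DMSO (-0.56 ± 0.08, adjusted p = 0.000427). Sharpin, part of the linear ubiquitin ligase, rose by 0.24 ± 0.05 against thapsigargin (adjusted p = 0.021).

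**Figure D4:**
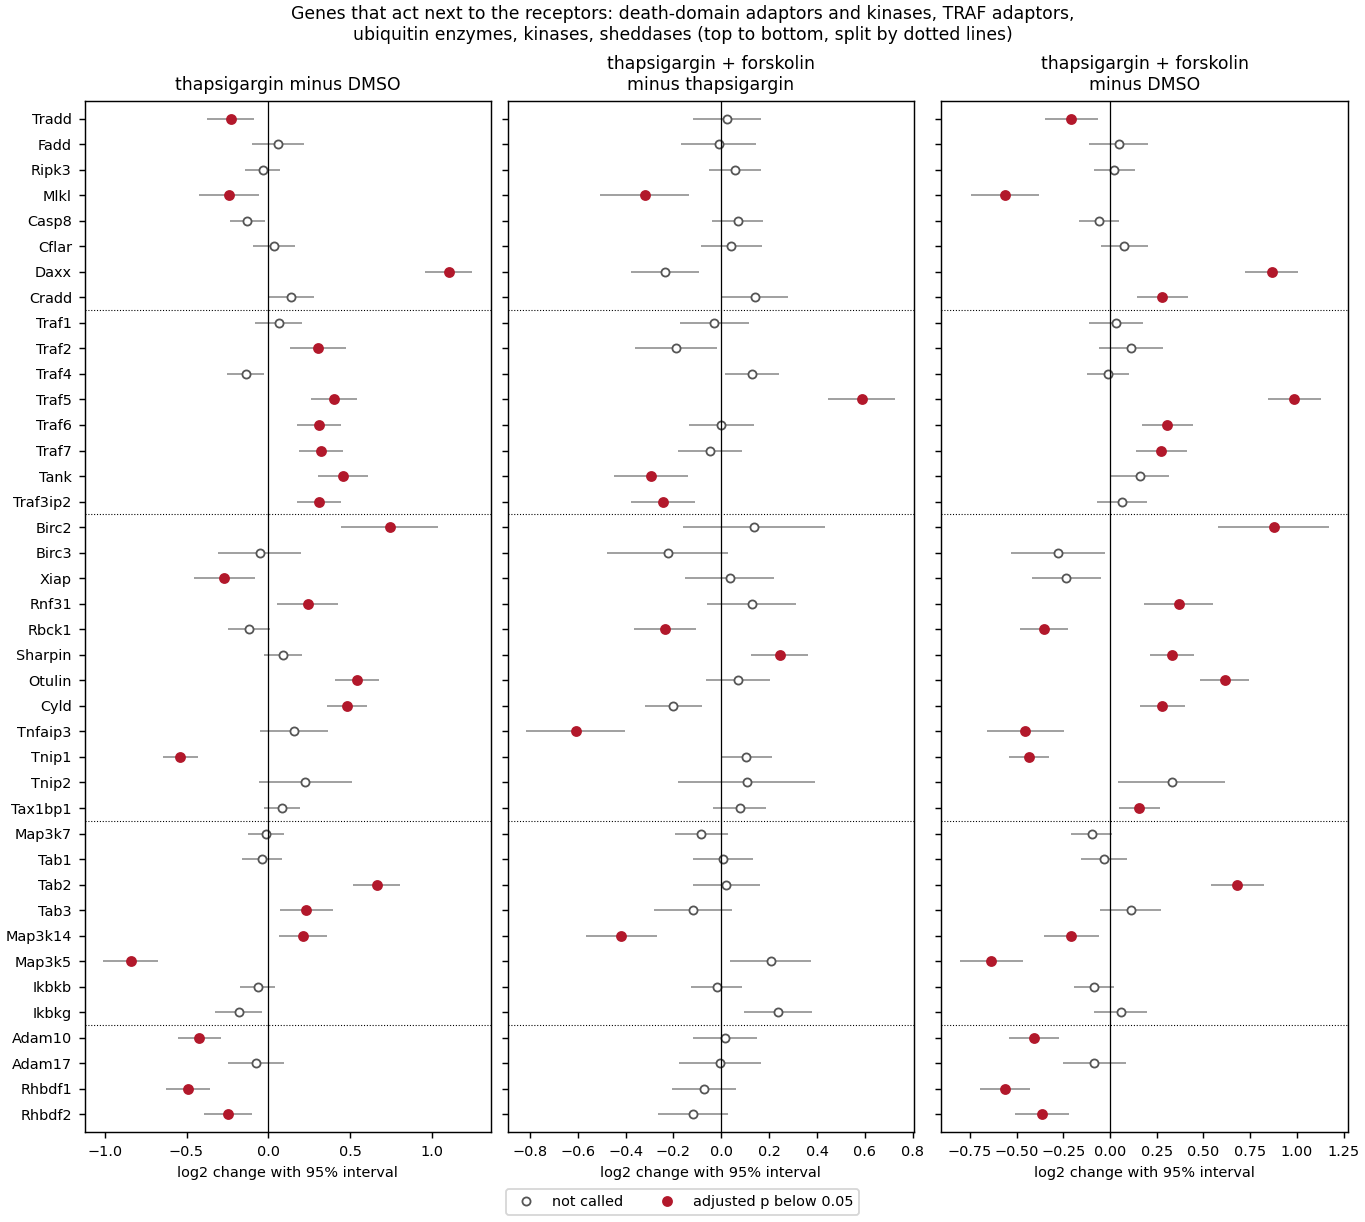
Log2 change with its 95% confidence interval for the measured adaptors and enzymes below the receptors, by class, in each of the 3 comparisons. Filled points are called, and each panel has its own axis. Daxx at 1.10 and Traf5 at 0.99 are the highest points named here, and Map3k5 at -0.84 is the lowest.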

How the data were processed

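The series holds 9 single-colour arrays of mouse podocyte RNA, 3 per group. The deposited values are log2 levels per probe set; the submitters' processing notes name affy and RMA. Their versions, the array annotation and the build are not given in the sources read here. RMA makes the arrays' distributions more alike, so each change is measured against the bulk of genes. Array medians of the deposited values still ran from 5.80 to 5.88. A second quantile normalization changed the all-gene calls for combined against DMSO from 3963 higher and 3699 lower to 3544 and 4334. Scanner files were not used here. The number of arrays limits the precision.

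Of 41345 probe sets, 23521 carried 1 gene symbol, 1814 several and 16010 none; the set with the highest mean was kept per gene, giving 22180 genes. The 3 group means were fitted in limma over all 9 arrays (limma 3.58.1, R 4.3.3), two-sided, with eBayes and Benjamini-Hochberg adjustment over all genes, called below 0.05. The procedure was tested on simulated data. Exact ties between arrays occurred for 18 of the 40 members and 43.9% of all genes. Named members are those called in any comparison with a group mean above the median, and for the adaptor list the 3 largest called changes per direction; genes outside these rules were named after their values were seen. Members and lists were chosen with earlier results of these data known. Alternatives were other fits, normalizations and filters, and each array left out. Figures used matplotlib 3.10.9 in Python 3.11.15.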

Additional observations from a re-analysis of the deposited data

How the results depend on the processing

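Of the changes that were called, 0 changed sign under any alternative. Changes of these members that were not called could change sign. For Tnfrsf19 the combined minus thapsigargin difference ran from -0.07 to 0.06 over the alternatives. A test against a log2 change of 0.5 moved the counts most, leaving 0 higher and 2 lower members for thapsigargin against DMSO, 1 and 1 for combined against thapsigargin, and 1 and 3 for combined against DMSO. Leaving out single arrays gave 6 to 7 higher and 4 to 10 lower for thapsigargin against DMSO, 3 to 3 and 3 to 4 for combined against thapsigargin, and 4 to 5 and 7 to 13 for combined against DMSO. The lower count of the first comparison was 4 without DMSO replicate 2 and 5 without thapsigargin replicate 1 or 3. Same-numbered arrays did not deviate together in every pair (correlations of -0.07 to 0.25), so the numbers were not taken as pairs. The arrays numbered 3 did so in each comparison, at 0.21 for thapsigargin with DMSO, 0.18 for combined with thapsigargin and 0.23 for combined with DMSO. Those numbered 1 gave 0.25 for combined with DMSO. Whether arrays of a number share a batch was not tested. With the replicate block the counts were 7 and 9, 3 and 4, and 5 and 11. For thapsigargin against DMSO the block lost Ngfr (adjusted p = 0.0538) and gained Tnfrsf13c (adjusted p = 0.0272), and for combined against DMSO it gained Tnfsf11 (adjusted p = 0.0416). For thapsigargin against DMSO, centring on array medians lost Ltb, Ngfr and Tnfrsf9 (adjusted p 0.0543, 0.0643 and 0.0826), the fit of the 6 arrays compared lost the same genes, a second quantile normalization lost Ngfr and Tnfrsf9, and an intensity trend with robust prior lost Ltb, Tnfrsf9 and Tnfsf11. The 6-array fit also lost Lta and Tnfrsf1a for combined against DMSO (adjusted p 0.0576 and 0.0799). Gained calls for thapsigargin against DMSO were Tnfrsf1a with the trend, the second quantile normalization and the filter, Tnfrsf1b with the second quantile normalization (adjusted p = 0.0216) and Tnfrsf13c with the filter. For combined against thapsigargin Tnfrsf22 was gained with the 6-array fit, the trend, the second quantile normalization and the filter, and Eda2r with the trend and the filter. For combined against DMSO Tnfsf11 was gained with the second quantile normalization, and Ltb, Ngfr, Tnfrsf25 and Tnfrsf4 with the filter. A filter on dim genes left 24, 23 and 25 members tested. The cause of these changes was not tested. Signal over background could not be checked in the normalized values, which limits what can be said of members below the median.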
